A study of Mus musculus with 12 samples.

Results

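Sca1-high and basal epithelial cells of the mouse prostate were compared by microarray. The comparison used 8 of the 12 libraries of the series, 4 from the Sca1-high gate and 4 from the basal gate, chosen by the gate and LY6D class in their labels. All cells came from wild-type, hormone-naïve male mice and were negative for the lineage markers CD45, CD31 and Ter119. The Sca1-high gate held CD49f-positive cells with a high level of Sca1 and was sorted from mice 1 and 5. The basal gate held CD49f-positive cells with an intermediate level of Sca1 and was sorted from mice 3 and 5. Each gate was split into LY6D+ and LY6D- cells, so that every gate and class had 2 libraries, each from 1 mouse. The other 4 libraries were LY6D+ and LY6D- luminal cells, low in both Sca1 and CD49f, from mice 4 and 5. They entered the fit and served as a reference level. No age was given in the labels used here. Mouse 5 was the only animal that supplied both gates. The 2 libraries of each gate and class came from different animals. The fit counted LY6D+ and LY6D- libraries of the same animal as independent, which they are not. P-values therefore take the library rather than the animal as the unit.

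Basal cells of the prostate lie on the basement membrane and carry stratified-epithelial keratins, the transcription factor p63 and laminin-binding integrins, whereas luminal cells face the duct, carry simple-epithelial keratins and secrete the seminal proteins. Sca1, encoded by Ly6a, is a GPI-anchored surface protein used with CD49f (integrin α6) to sort prostate epithelium, and Sca1-high CD49f-positive fractions have been used as a source of cells with progenitor activity. Aldehyde dehydrogenases oxidise reactive aldehydes, and their activity is a common marker of progenitor fractions in epithelia. LY6D is a GPI-anchored protein of the same family as Sca1.

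The deposited log2 signals covered 20135 tested genes, each represented by its brightest probe set with a single gene symbol. Differences are given as Sca1-high minus basal on the log2 scale with the standard error of the limma fit, and both LY6D classes weighed equally. Array medians lay between 3.76 and 3.99, and the median over all values was 3.90. Replicate libraries of the same gate and class correlated with a median r of 0.854 across genes, close to the median r of 0.843 between Sca1-high and basal libraries. LY6D+ and LY6D- libraries of the same gate and mouse correlated more closely, with a median r of 0.882. The LY6D+ Sca1-high library of mouse 5 stood apart, with the lowest median correlation with the others (0.807). In bulk samples, fewer cells of a type and less RNA per cell cannot be told apart.

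Of the sorting genes, Itga6 (CD49f) read 6.07, 7.93, 7.03 and 6.91 in the Sca1-high libraries and 8.22, 9.15, 7.44 and 9.05 in the basal libraries, and the gate difference of -1.48 ± 0.46 did not pass the test (adjusted p = 0.372). Ly6d differed by -0.05 ± 0.50 between the gates (adjusted p = 0.974), a sign that turned under quantile normalization. Ly6a was not analysed here. Of the markers that define basal cells, Trp63, which encodes p63, read 4.68 to 5.22 in Sca1-high and 4.79 to 5.07 in basal libraries, so the gates overlapped. Krt14, the keratin of the basal layer, read 10.40, 7.89, 8.96 and 10.41 in Sca1-high libraries and 11.65, 11.69, 10.19 and 11.47 in basal libraries. Krt14 was therefore bright in both gates, and 2 Sca1-high libraries exceeded the lowest basal one. Pecam1, which encodes CD31, was also bright in both gates despite the lineage gate, at 6.84 to 9.58 in Sca1-high and 5.70 to 8.62 in basal libraries. Ptprc, which encodes CD45, read 3.86 to 4.53 in Sca1-high and 3.25 to 3.76 in basal libraries. These ranges did not overlap, though the difference did not pass the test. The basal values lay below the median of all values and the Sca1-high values near or above it. Trp63 and Krt14 were picked as defining markers after their values were seen.

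Aldh2 and Pcdh7 were lower in Sca1-high cells, and they were the only genes of 20135 past an adjusted p of 0.05 (2 genes, 0.00993%); no gene was higher (0%). Without adjustment, 907 genes were higher (4.5%) and 1072 lower (5.32%) at p under 0.05. The number of calls was sensitive to single libraries. It came to 133 without the LY6D- basal library of mouse 3, to 30 without the LY6D+ Sca1-high library of mouse 1, to 13 without the LY6D- Sca1-high library of mouse 5, to 5 without the LY6D+ Sca1-high library of mouse 5 and to 4 without the LY6D- Sca1-high library of mouse 1. It was 3 without either basal library of mouse 5. With mouse as a fixed replicate block, 80 genes were called, all lower and including both genes. Mouse 1 gave only Sca1-high and mouse 3 only basal cells, so that block took up their levels. The gate difference over both classes then came from mouse 5 alone, here and wherever the fixed block is used below. Aldh2 and Pcdh7 were called without any one of the 8 libraries.

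Aldh2, the mitochondrial aldehyde dehydrogenase that oxidises acetaldehyde, read 7.99 and 7.67 in the LY6D+ and 7.25 and 6.99 in the LY6D- Sca1-high libraries. The basal libraries read 11.16 and 10.91 (LY6D+) and 10.82 and 10.44 (LY6D-). The gates were separated by more than 2 log2 units at their nearest libraries. Mean levels were 7.47 ± 0.44 (SD, n = 4) in Sca1-high and 10.83 ± 0.30 (SD, n = 4) in basal cells, a difference of -3.36 ± 0.20 or 10.3-fold (limma, adjusted p = 7.2e-04). The difference was 9.23-fold in LY6D+ and 11.4-fold in LY6D- cells. Within mouse 5 it was -3.24 in LY6D+ and -3.45 in LY6D- cells, and between mice 1 and 3 it was -3.17 and -3.57. Luminal libraries read 9.94 to 10.62, so Sca1-high cells were also below luminal cells, by 2.71 on the log2 scale (adjusted p = 0.00243), while basal and luminal cells differed by 0.65 (adjusted p = 0.307). A second, dimmer Aldh2 probe set differed by -0.62 ± 0.46, with a mean of 4.25 against 4.87. The average of both Aldh2 probe sets differed by -1.99 and was not called (adjusted p = 0.0822).

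Pcdh7, a protocadherin of the cell surface, read 3.15, 2.50, 3.07 and 3.15 in the Sca1-high libraries. In the basal libraries it read 5.83, 6.38, 5.72 and 6.63. No library overlapped, and the Sca1-high values lay near the lower quartile of all array values (2.98), at the level of the luminal libraries (2.82 to 3.32). The difference was -3.17 ± 0.27 (adjusted p = 0.00673), for which no fold is given because the Sca1-high signal was so dim, and it was -3.89 and -3.48 within mouse 5 and -2.68 and -2.64 between mice 1 and 3. Basal cells exceeded luminal cells by 3.11 (adjusted p = 0.00400), and Sca1-high and luminal cells differed by -0.06 ± 0.27. These gate comparisons share libraries, and their values are given side by side only. Averaging the libraries of each mouse ended both calls, with an adjusted p of 0.0729 for Aldh2 and 0.125 for Pcdh7. Leaving out both libraries of mouse 5 from the basal gate also ended the Pcdh7 call (adjusted p = 0.0636), as did leaving out both from the Sca1-high gate (adjusted p = 0.0532). So did a fit to only the 8 arrays of both gates (adjusted p = 0.0986), and a fit without the 3 libraries of mouse 5 that stood apart on the first principal component, both basal and the LY6D- luminal one (adjusted p = 0.140).

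**Figure D1:**
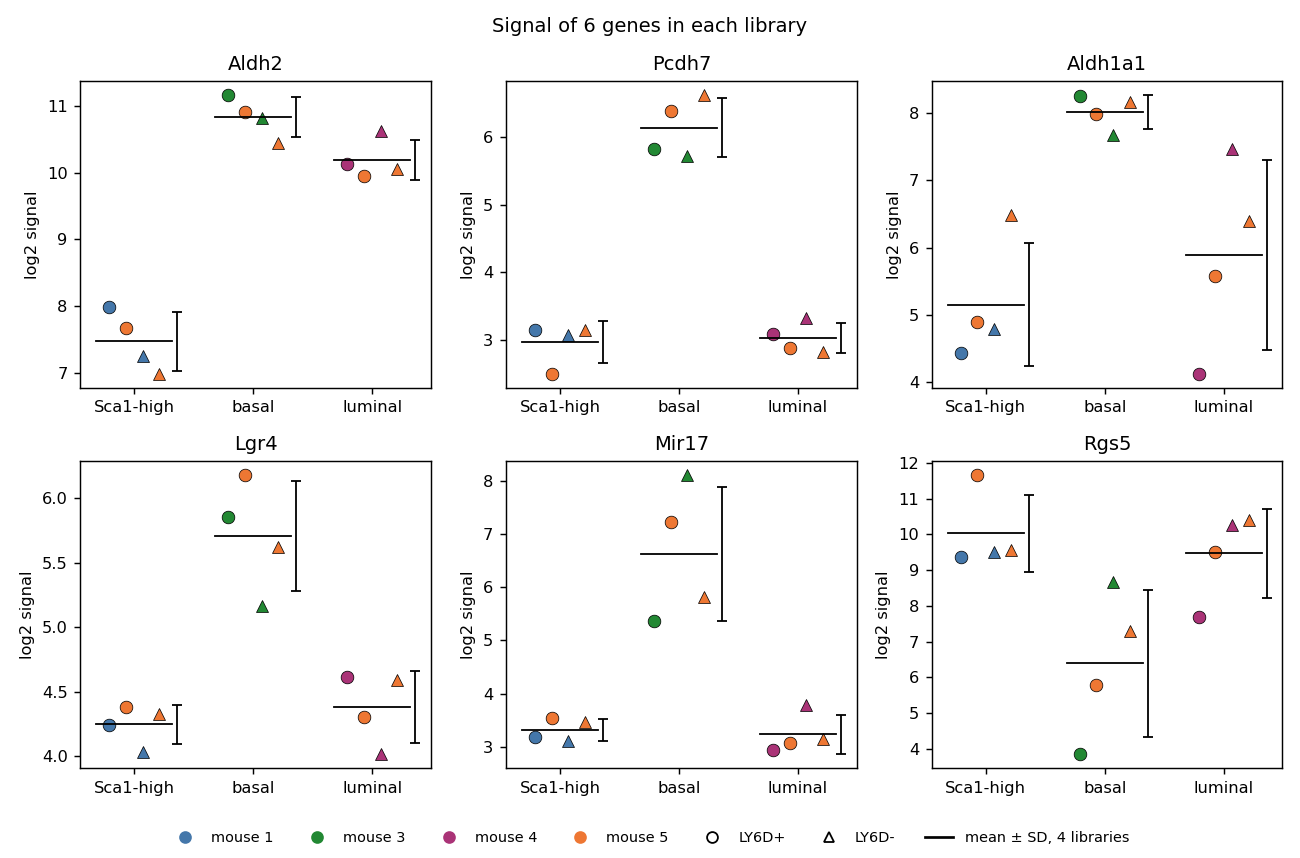
Log2 signal of named genes in each of the 12 libraries, with points for libraries and bars for gate means. Aldh2 separates Sca1-high (6.99 to 7.99) from basal (10.44 to 11.16) libraries, and Pcdh7 lies at 2.50 to 3.15 against 5.72 to 6.63.

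The genes whose libraries did not overlap between the gates were mostly lower in Sca1-high cells where the difference was large. All 4 Sca1-high libraries lay below all 4 basal libraries for 456 genes (2.26%) and above them for 961 (4.77%). With a difference of at least 1 on the log2 scale, 301 genes lay below (1.49%) and 37 above (0.184%). Over all tested genes 64.2% had a positive difference. The median gene differed by 0.11, and after each array was centred on its median by -0.02. The split of all genes without overlap then turned to 675 below and 421 above, and to 568 below and 550 above after quantile normalization. Among differences of at least 1 the split was 377 below and 19 above, and 279 and 54. Fewer libraries leave more genes without overlap. The counts of 301 and 37 became 921 and 97 without the LY6D- basal library of mouse 3, 492 and 86 without the LY6D- Sca1-high library of mouse 5, and 417 and 74 without the LY6D+ Sca1-high library of mouse 1. The 37 became 79 and 66 without the LY6D+ library of mouse 5 or the LY6D- library of mouse 1 of the Sca1-high gate, and 65 without the LY6D+ basal library of mouse 3.

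**Figure D2:**
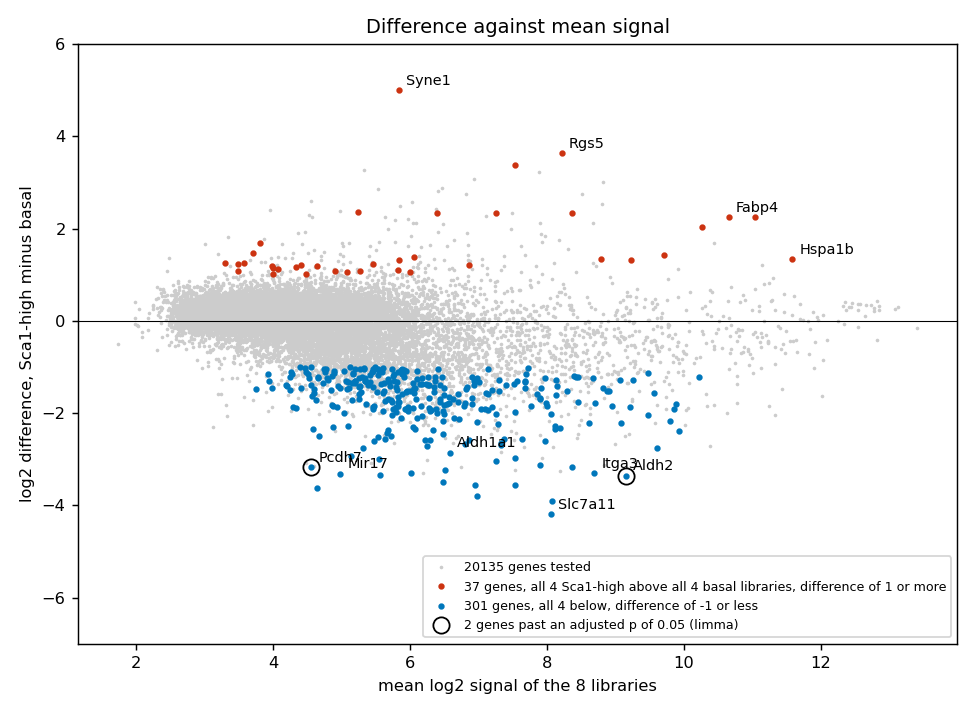
Difference of Sca1-high minus basal (log2, vertical axis) against the mean log2 signal of both gates (horizontal axis) for every tested gene. The cloud centres near 0.11, and large differences without overlap lie mostly below 0.

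Aldh2 was joined by a second aldehyde dehydrogenase among the genes without overlap. Aldh1a1, the cytosolic enzyme that makes retinoic acid from retinaldehyde, read 4.43, 4.90, 4.79 and 6.49 in Sca1-high libraries. Its basal libraries read 8.24, 7.98, 7.67 and 8.15. The lowest basal library was above the highest Sca1-high library, the LY6D- library of mouse 5, and the difference of -2.86 ± 0.45 or 7.25-fold missed the adjusted threshold (adjusted p = 0.164). Of the 20 aldehyde dehydrogenase genes tested, Aldh2 and Aldh1a1 lay below without overlap and none lay above, where all genes gave 2.26% and 4.77%. The other 18 were mixed. Of the 20, 11 had a positive difference, where all genes gave 64.2%. The list's median of 0.01 became -0.11 after median centring and -0.10 after quantile normalization. Aldh18a1, an enzyme of proline synthesis, differed by -1.07 ± 0.47 with overlap.

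Among genes without overlap between the gates, those with the next smallest p-values were lower in Sca1-high cells and did not pass the threshold. Wipi2, which acts in autophagosome formation, read 4.90 to 5.56 in Sca1-high and 6.84 to 7.55 in basal libraries (-2.07 ± 0.24, adjusted p = 0.0743). Flvcr1, a haem and choline transporter, read 3.70 to 5.08 against 6.45 to 7.44 (-2.55 ± 0.33, adjusted p = 0.0887). It stood at 3.72 in luminal cells, 3.19 below the basal level (adjusted p = 0.00924). Lonrf1, a RING-finger protein, differed by -2.29 ± 0.29, and Ptpn23, which acts in endosomal sorting, by -1.68 ± 0.22. Marchf5, a ubiquitin ligase of the outer mitochondrial membrane, differed by -1.95 ± 0.27 and the carboxylesterase gene Ces2g by -2.0 ± 0.28. Ptger4, a receptor for prostaglandin E2, read 4.73 to 5.48 against 6.19 to 7.46. Dlst, the succinyltransferase of the 2-oxoglutarate dehydrogenase complex, read 5.74 to 6.68 against 7.53 to 8.67. Snora44, a small nucleolar RNA gene, differed by -3.23 ± 0.44.

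The largest lower difference without overlap was that of Slc7a11, the cystine and glutamate exchanger, whose Sca1-high libraries read 8.88, 4.05, 5.54 and 5.38 and whose basal libraries read 10.20, 9.75, 10.73 and 9.90. The LY6D+ Sca1-high library of mouse 1 lay more than 3 log2 units above the other Sca1-high libraries. The difference was -4.19 ± 0.83 (adjusted p = 0.200), and a second Slc7a11 probe set differed by -1.29 ± 1.18, with overlap. This second probe set read 9.75 and 9.70 in the Sca1-high libraries of mouse 5, against 9.81 and 9.43 in its basal libraries. It read 7.08 and 4.02 in the Sca1-high libraries of mouse 1, against 8.04 and 8.45 in the basal libraries of mouse 3. Ddx18, an RNA helicase of ribosome assembly, differed by -3.91 ± 0.74 and Twistnb, an RNA polymerase I subunit, by -3.49 ± 0.74. Cdcp1, a transmembrane protein phosphorylated by SRC, read 4.23 to 6.11 in Sca1-high and 6.69 to 9.96 in basal libraries (-3.55 ± 0.69). The antimicrobial peptide gene Defb2 read 2.98 to 4.55 against 6.06 to 8.76 (-3.34 ± 0.68). Naa30, the catalytic subunit of an N-terminal acetyltransferase, differed by -3.31 ± 0.63, Siah1a, a ubiquitin ligase, by -3.56 ± 1.19, and the noncoding gene Rab26os by -3.80 ± 0.76.

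Most basal epithelial genes read lower in Sca1-high cells, without passing the test singly. Of the 20 basal epithelial genes tested, 16 had a negative difference, 5 lay below without overlap and 1 above, where all genes gave 2.26% and 4.77%. The median difference was -1.26, against 0.11 for all genes. It was -0.81 without the LY6D- basal library of mouse 5 and -0.47 without both basal libraries of mouse 5. The list mean read 6.0, 5.54, 5.53 and 6.21 in the Sca1-high libraries and 6.73, 7.25, 6.29 and 7.20 in the basal libraries. The lowest basal library, LY6D- of mouse 3, lay just above the highest Sca1-high library, LY6D- of mouse 5. The luminal list means were 4.96 to 5.95. The median was -1.27 in LY6D+ and -1.14 in LY6D- cells.

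Itga3, the α subunit of a laminin-binding integrin, read 8.23, 6.17, 5.70 and 8.05 in Sca1-high libraries and 10.32, 10.71, 9.33 and 10.98 in basal libraries. The gates did not overlap, and the difference was -3.30 ± 0.68 or 9.83-fold (adjusted p = 0.200). Col17a1, the transmembrane collagen of hemidesmosomes, read 6.15, 5.68, 5.57 and 5.86 against 7.56, 8.15, 6.61 and 8.0 (-1.77 ± 0.32, adjusted p = 0.166). Egfr, the receptor of epidermal growth factor, read 6.37, 5.70, 6.11 and 8.51 against 8.65, 9.96, 8.60 and 9.87. The LY6D- Sca1-high library of mouse 5 nearly reached the lowest basal library for Egfr, and the difference was -2.60 ± 0.55. Of the basal keratins, picked after their values were seen, Krt15 differed by -2.26, Krt17 by -1.85 and Krt14 by -1.84. Krt5 was measured only by a probe set shared with Krt6a, which differed by -0.92.

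Genes of attachment to the basement membrane were next. Among all genes 2.26% lay below without overlap, 4.77% lay above and 64.2% had a positive difference. Of 23 hemidesmosome and basement membrane genes tested, 15 had a negative difference, 5 lay below without overlap and none above, with a median of -0.45. That median was -0.30 without the LY6D- Sca1-high library of mouse 5 and -0.16 without both basal libraries of mouse 5. Plec, which encodes the cytolinker plectin, differed by -0.99 ± 0.27 and Dst, which encodes the plakin dystonin, by -1.46 ± 0.48, both without overlap. Of 18 integrin genes, 2 lay below and none above, with a median of -0.10 that ranged from -0.31 without the LY6D+ basal library of mouse 5 to 0.01 without that of mouse 3. The collagen-binding integrin gene Itga2 differed by -2.97 ± 0.82 and Itgb6, a subunit of a receptor that releases active TGF-β, by -1.38 ± 0.38, both with overlap. Among cadherins other than Pcdh7, Cdh3 (P-cadherin) read 4.31 to 5.32 in Sca1-high and 4.83 to 7.47 in basal libraries. That list's median of 0.08 turned negative under median centring (-0.05) and quantile normalization (-0.06).

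**Figure D3:**
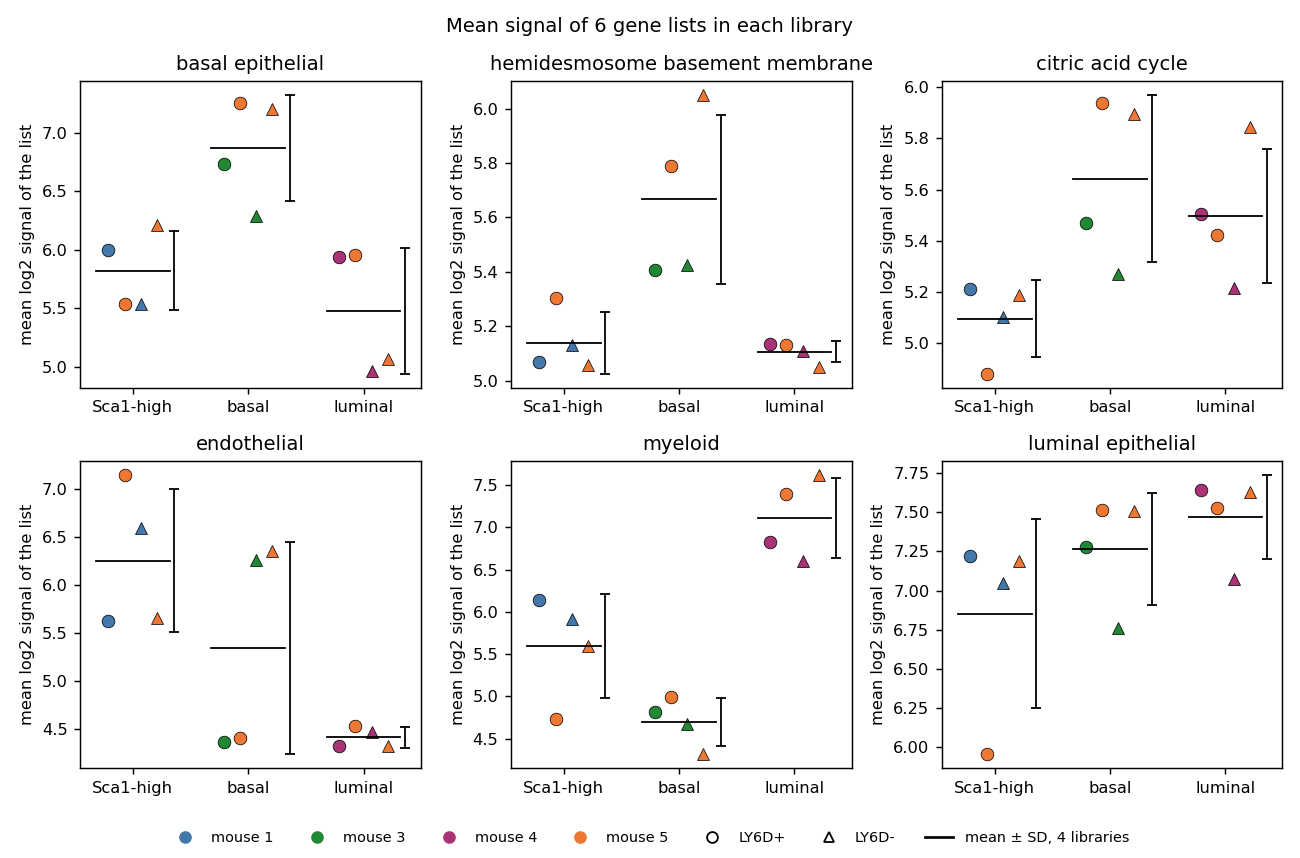
Mean log2 signal over the tested members of selected gene lists in each library, by gate and LY6D class. Basal epithelial means lie at 5.53 to 6.21 in Sca1-high and 6.29 to 7.25 in basal libraries, whereas the endothelial means of LY6D- libraries overlap between the gates.

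Egfr and its ligands Tgfa, Hbegf and Epgn lay below without overlap, though none passed the adjusted threshold. Epgn, outside the naming rule and the EGF and FGF signalling list, differed by -1.72 ± 0.48. The other tested EGFR ligands of that list, Btc, Egf and Ereg, did not lie below without overlap. Tgfa read 4.62 to 5.09 in Sca1-high and 5.61 to 6.04 in basal libraries (-1.02 ± 0.20, adjusted p = 0.200). Hbegf, the heparin-binding ligand, read 8.01 to 9.69 against 9.86 to 11.29 (-1.80 ± 0.42). Spry4, a feedback inhibitor of receptor tyrosine kinase signalling, differed by -1.14 ± 0.39. Tgfa, Hbegf, Spry4 and Egfr were the 4 genes of 23 in the EGF and FGF signalling list that lay below without overlap, and 1 lay above. Shares over all genes were 2.26% below, 4.77% above and 64.2% positive. Of the 23 genes 12 had a negative and 11 a positive difference, with a median of -0.01.

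Of 22 stem and progenitor genes tested, 14 had a negative difference, with a median of -0.35 (-0.19 without the LY6D- basal library of mouse 5). Lgr4, Aldh1a1 and Sox9 lay below without overlap, and none lay above. Shares over all genes were 2.26% below, 4.77% above and 64.2% positive. Lgr4, an R-spondin receptor of the WNT pathway, read 4.24, 4.38, 4.03 and 4.33 in Sca1-high libraries and 5.85, 6.18, 5.16 and 5.62 in basal libraries. The difference was -1.46 ± 0.21 or 2.75-fold (adjusted p = 0.123). No library overlapped. The luminal mean of Lgr4 was 4.38, and basal cells exceeded luminal cells by 1.32 (adjusted p = 0.0402). Sox9, a transcription factor of epithelial progenitors, differed by -1.70 ± 0.51, and Cd44, the hyaluronan receptor, by -1.74 ± 0.48 with overlap. Of 19 Notch pathway genes, 4 lay above and 1 below without overlap, where all genes gave 4.77% and 2.26%. The Notch gene below without overlap was Rbpj (-1.26 ± 0.63), which is outside the naming rule. Jag1, a ligand, differed by -2.25 ± 0.74 with overlap, and Dll4, a ligand of endothelial cells among others, by 0.87 ± 0.17. Among epithelial transcription factors Tfap2a differed by -2.73 ± 0.76 and Klf5 by -1.34 ± 0.43, both with overlap.

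Most energy metabolism genes read lower in Sca1-high cells, and none passed the adjusted threshold. Among all genes 64.2% had a positive difference, 2.26% lay below without overlap and 4.77% lay above. Of 23 citric acid cycle genes tested, 19 had a negative difference, 3 lay below without overlap and none above, with a median of -0.28. The 3 were Dlst, Ogdh (-1.31), which encodes the first subunit of the same complex, and Sdhc (-1.24), a membrane anchor of succinate dehydrogenase. Of 15 glycolysis genes, 13 had a negative difference, with a median of -0.33. Pkm (pyruvate kinase) read 6.61 to 8.14 in Sca1-high and 8.64 to 9.38 in basal libraries, and Hk2 (hexokinase) read 4.79 to 5.40 against 5.42 to 8.75. Both lay below without overlap. Slc2a1, the glucose transporter GLUT1, differed by -1.83 ± 0.46 with overlap. Of 25 respiratory chain genes, none lay outside the other gate's range and the median was -0.29. Of 23 ribosomal protein genes, 19 had a negative difference, with a median of -0.61, also with none outside the range. Single libraries moved these medians in both directions. Without the LY6D+ Sca1-high library of mouse 5 the median was -0.28 for ribosomal proteins and -0.07 for the respiratory chain, which was also at -0.09 without the LY6D- basal library of mouse 5. Without the LY6D- basal library of mouse 3 it was -0.57 for the respiratory chain and -0.75 for glycolysis, and without the LY6D+ Sca1-high library of mouse 1 it was -0.56 and -0.64. With mouse as a fixed replicate block, where only mouse 5 informs the gate difference, the medians were lower. They were -0.86 for the respiratory chain, -1.10 for glycolysis, -1.11 for ribosomal proteins and -0.62 for the citric acid cycle. Without both basal libraries of mouse 5 the respiratory chain median turned to 0.02. Of 19 immediate early genes, induced by growth signals and by tissue dissociation, 16 had a negative difference, with a median of -0.69 (-1.38 with the fixed replicate block), and Fosl2, a subunit of AP-1, lay below without overlap (-1.57 ± 0.41).

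**Figure D4:**
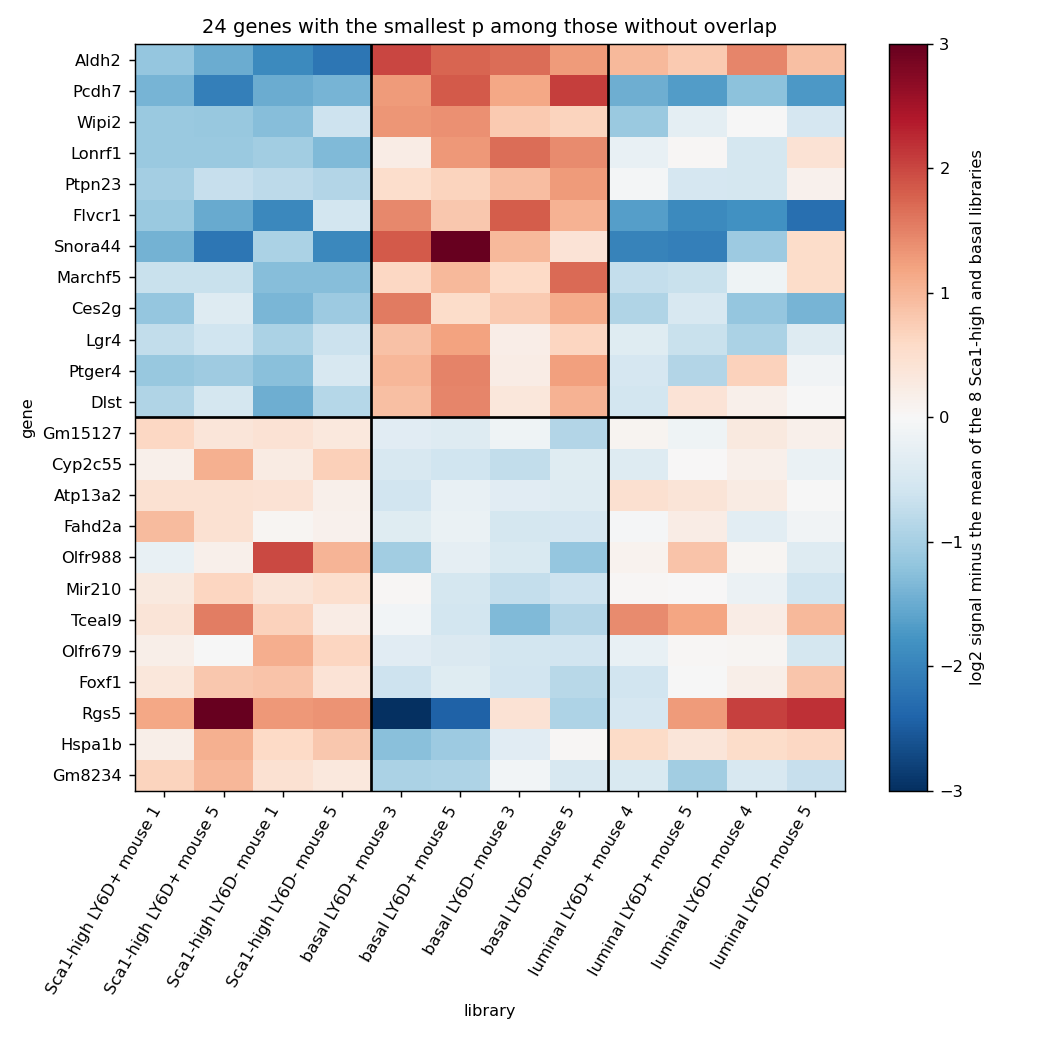
Log2 signal of the genes with the smallest p-values in each direction among genes without overlap between the gates. The split between Sca1-high and basal libraries was thus fixed by the choice of genes. Each gene is centred on its mean over the 8 Sca1-high and basal libraries. Columns are the 12 libraries, and colour gives the deviation from that mean, blue below and red above, and luminal libraries are shown for reference.

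2 microRNA genes of 1 cluster were among the largest lower differences. The probe sets read the signal of the microRNA gene in amplified RNA and not the mature microRNA. Mir17 and Mir18 belong to the cluster of the host gene Mir17hg, whose microRNAs promote proliferation, and Mir205 is a microRNA gene of stratified epithelium. For identification, mature sequences encoded by Mir17, Mir18 and Mir205, and by Mir20a and Mir210 for contrast, are given 5′ to 3′ from RefSeq (GRCm38.p6), with the seed, bases 2 to 8, in capitals.
mmu-miR-17-5p: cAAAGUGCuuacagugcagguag
mmu-miR-18a-5p: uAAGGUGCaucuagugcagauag
mmu-miR-20a-5p: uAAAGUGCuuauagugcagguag
mmu-miR-205-5p: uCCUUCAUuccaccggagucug
mmu-miR-210-3p: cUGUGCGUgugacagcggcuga
The first 3 lie on the plus strand at chr14:115043684-115043706, chr14:115043867-115043889 and chr14:115044183-115044205. The other 2 lie on the minus strand at chr1:193507503-193507524 and chr7:141221407-141221428. miR-17-5p and miR-20a-5p share a seed, and miR-18a-5p has another.

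Mir17 read 3.17, 3.54, 3.11 and 3.45 in the Sca1-high libraries and 5.37, 7.23, 8.11 and 5.82 in the basal libraries. Mir18 read 3.17, 2.67, 2.53 and 2.92 against 5.72, 6.71, 7.96 and 5.44. All Sca1-high values were near the lower quartile of the arrays, and neither gene overlapped between the gates. Mir17 differed by -3.31 ± 0.52 (adjusted p = 0.164) and Mir18 by -3.63 ± 0.70 (adjusted p = 0.197), with no fold given at so dim a signal. Luminal cells read 3.23 for Mir17, and basal cells exceeded them by 3.40 (adjusted p = 0.0351). Mir20a, of the same cluster, read 2.66 to 2.78 in Sca1-high and 2.22 to 4.90 in basal libraries, with only the LY6D+ basal library of mouse 5 high. A probe set shared by the cluster's host gene Mir17hg, Mir19b-1 and Mir92-1 differed by 0.01. Mir205 read 3.24, 3.56, 2.88 and 3.98 against 4.71, 7.89, 4.21 and 6.25, again without overlap (-2.35 ± 0.70, adjusted p = 0.367). Of 276 microRNA genes tested, Mir17, Mir18 and Mir205 were the only 3 below without overlap and 19 lay above. These counts are not far from the shares of all genes, 2.26% below and 4.77% above. The median microRNA gene differed by 0.23, and none passed the adjusted threshold. Mir210, a microRNA induced by hypoxia, read 8.37 to 8.72 against 7.37 to 8.10 (0.91 ± 0.20, adjusted p = 0.200). Mir205 and Mir20a were added after their values were seen.

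Genes higher in Sca1-high cells without overlap included an inducible chaperone, a pericyte gene and several little-described genes, and none passed the threshold. Those with the smallest p-values are given first. Hspa1b, an inducible Hsp70 chaperone, read 11.77, 12.66, 12.18 and 12.38 in Sca1-high libraries and 10.34, 10.49, 11.24 and 11.61 in basal libraries. The basal libraries of the LY6D- class came nearest, and the difference was 1.33 ± 0.22 (adjusted p = 0.166). Its near-identical copy Hspa1a, from which its signal may not be separable, differed by 2.25 ± 0.53. Rgs5, a regulator of G protein signalling typical of pericytes, read 9.38, 11.66, 9.52 and 9.56 against 3.86, 5.79, 8.66 and 7.29 (3.63 ± 0.63, adjusted p = 0.166). A second Rgs5 probe set differed by 1.51, and luminal cells read a mean of 9.47. Foxf1, a forkhead factor of mesenchyme, read 4.98 to 5.49 against 3.82 to 4.28. Tceal9 differed by 1.42 ± 0.30, Cyp2c55, a cytochrome P450, by 1.09 ± 0.25 and Atp13a2, a lysosomal transporter, by 0.76 ± 0.17. Second probe sets of Tceal9 and Cyp2c55 differed by 0.59 ± 0.64 and 0.61 ± 0.42, both with overlap. Other genes of this group, Gm8234, Gm15127, Fahd2a, Olfr679 and Olfr988, differed by 0.80 to 1.46.

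The largest higher difference without overlap was that of Syne1, which encodes the nuclear envelope protein nesprin-1, at 9.40, 9.28, 10.69 and 3.97 against 2.84, 3.77, 3.80 and 2.92. It rested on 3 of the 4 Sca1-high libraries, since the LY6D- library of mouse 5 was close to the basal values. The difference was 5.00 ± 1.20 (adjusted p = 0.267) in the brightest of 59 Syne1 probe sets, and the other 58 differed by -0.86 to 1.72 with a median of 0.38. Snora30 differed by 3.38 ± 1.05 and Mir467e by 2.34 ± 0.61. Tmem234 read 9.19 to 9.87 against 6.48 to 8.24 (2.33 ± 0.68). Ccl3, an inflammatory chemokine, read 10.32 in the LY6D+ Sca1-high library of mouse 1, 4.59 to 5.60 in the other Sca1-high libraries and 3.74 to 4.31 in basal libraries. Col1a2, a type I collagen chain, differed by 2.33 ± 0.61, but a second Col1a2 probe set by 0.34. Likewise Ehd1, an endocytic recycling protein, differed by 2.03 ± 0.52 and by -0.15 in its second probe set. Fabp4, a fatty acid carrier of capillary endothelium and fat, differed by 2.25 ± 0.62 and Rbp7, a retinol-binding protein, by 1.69 ± 0.41.

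Genes of endothelial cells read higher in LY6D+ Sca1-high than in LY6D+ basal libraries. Emcn (endomucin) read 9.08 and 11.22 in LY6D+ Sca1-high and 3.62 and 5.06 in LY6D+ basal libraries. In LY6D- libraries Emcn read 11.22 and 9.79 against 10.34 and 10.27. The LY6D+ gates were therefore far apart and the LY6D- gates overlapped, with differences of 5.81 and 0.20. Adgrl4 differed by 5.54 in LY6D+ and 0.59 in LY6D- cells, Cdh5 (VE-cadherin) by 4.03 and -0.54, and Kdr (VEGF receptor 2) by 3.21 and -0.57. Of 24 endothelial genes tested, 21 had a positive difference, 1 lay above without overlap and none below. Shares over all genes were 64.2% positive, 4.77% above and 2.26% below. The endothelial median over both classes was 0.40. It was 0.60 with mouse as a fixed replicate block, 0.70 without the LY6D+ Sca1-high library of mouse 1, 0.69 without the LY6D- Sca1-high library of mouse 5 and 0.65 without the LY6D- basal library of mouse 5. The list mean was 5.63 to 7.14 in Sca1-high libraries, 4.36 and 4.41 in LY6D+ basal, 6.25 and 6.35 in LY6D- basal and 4.32 to 4.52 in luminal libraries. Its median was 1.27 in LY6D+ and -0.14 in LY6D- cells. The part of these genes' source cells in the gate comparison was not tested. Cdh5 and Kdr were picked as defining markers after their values were seen.

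Markers of other cell types also differed in level. All 18 myeloid genes had a positive difference, with a median of 0.79, and 5 lay above without overlap, where all genes gave 64.2% positive and 4.77% above. The median was 0.47 without the LY6D+ Sca1-high library of mouse 1 and 0.38 with the fixed replicate block. The list mean was 4.73 to 6.14 in Sca1-high, 4.32 to 4.99 in basal and 6.61 to 7.62 in luminal libraries. Lyz2 (lysozyme) read 8.07, 3.20, 8.60 and 7.98 in Sca1-high libraries and 2.38 to 5.29 in basal libraries, so that 3 of the 4 Sca1-high libraries were high. C1qa, a complement gene of macrophages, read 5.49 to 6.31 against 4.62 to 5.35, and Cx3cr1, a chemokine receptor, differed by 1.07 ± 0.24. Of 14 antigen presentation genes, 3 lay above without overlap and none below, with a median of 0.34. That median was 0.18 and 0.07 without the LY6D+ or LY6D- Sca1-high library of mouse 1, and 0.04 with the fixed replicate block. The 3 genes were H2-Aa (1.22) and H2-Eb1 (0.94), chains of class II molecules, and Ciita (0.50), their transcriptional activator. Of the 14 genes, 10 had a positive and 4 a negative difference. Cd74, of the same list but outside the naming rule, was measured only by a probe set shared with Mir5107. That probe set differed by -0.08 ± 1.01, with overlap. Of 18 fibroblast genes 3 lay above and of 14 pericyte and smooth muscle genes 4, none below, with medians of 0.28 and 0.23. Without the LY6D- basal library of mouse 5 these medians were 0.18 and 0.12, and without that of mouse 3 they were 0.43 and 0.40. The pericyte median was 0.39 without the LY6D+ basal library of mouse 3 and 0.37 with the fixed replicate block. The part of these cells in the result was not tested.

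No simple-epithelial keratin passed the test. Krt7 differed by -0.09 ± 0.47 and Krt19 by -0.37 ± 0.47. Krt8 differed by -1.69 and Krt18 by -1.93, and Krt18 read 5.30 in the LY6D+ Sca1-high library of mouse 5 against 10.02 to 10.49 in the other 3. A second Krt18 probe set differed by -3.82. Epcam, an adhesion molecule of all epithelium, differed by -0.77. Krt7, Krt8, Krt18, Krt19 and Epcam were picked as defining markers after their values were seen. Of 18 luminal epithelial genes 8 had a positive and 10 a negative difference, 1 lay above without overlap and none below, and the median of -0.23 became 0.05 under quantile normalization and 0.07 without the LY6D+ Sca1-high library of mouse 5. Of 19 prostate secretory genes 14 had a positive difference, near the 64.2% of all genes, with a median of 0.21 and none outside the other gate's range. The fixed replicate block turned that median to -0.59, and it was 0.36 to 0.50 without any 1 of the 4 libraries of mouse 5 in these gates or without the LY6D- basal library of mouse 3. Of 22 cell cycle genes, 4 lay above, 1 below and 20 had a positive difference, with a median of 0.23, where all genes gave 4.77% above, 2.26% below and 64.2% positive. That median was 0.10 after median centring, 0.11 after quantile normalization and 0.15 without the LY6D- basal library of mouse 5. Cdk1, the mitotic kinase, read 3.50 to 3.93 against 2.96 to 3.37, below the array median in most libraries. All 8 seminal vesicle genes tested had a positive difference, with a median of 0.76 and none outside the other gate's range. In LY6D+ cells 4 of the 8 were positive, with a median of -0.29, and in LY6D- cells all 8, with a median of 1.54. The fixed replicate block turned the median to -0.67, and it ranged from 0.21 without the LY6D+ Sca1-high library of mouse 1 to 1.52 without the LY6D+ basal library of mouse 5. The remaining 18 lists had medians between -0.29 and 0.23, and the retinoid, urothelial, WNT and unfolded protein response lists among them turned sign under a scaling. Over all 40 lists no gene other than Aldh2 and Pcdh7 passed the adjusted threshold.

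**Figure D5:**
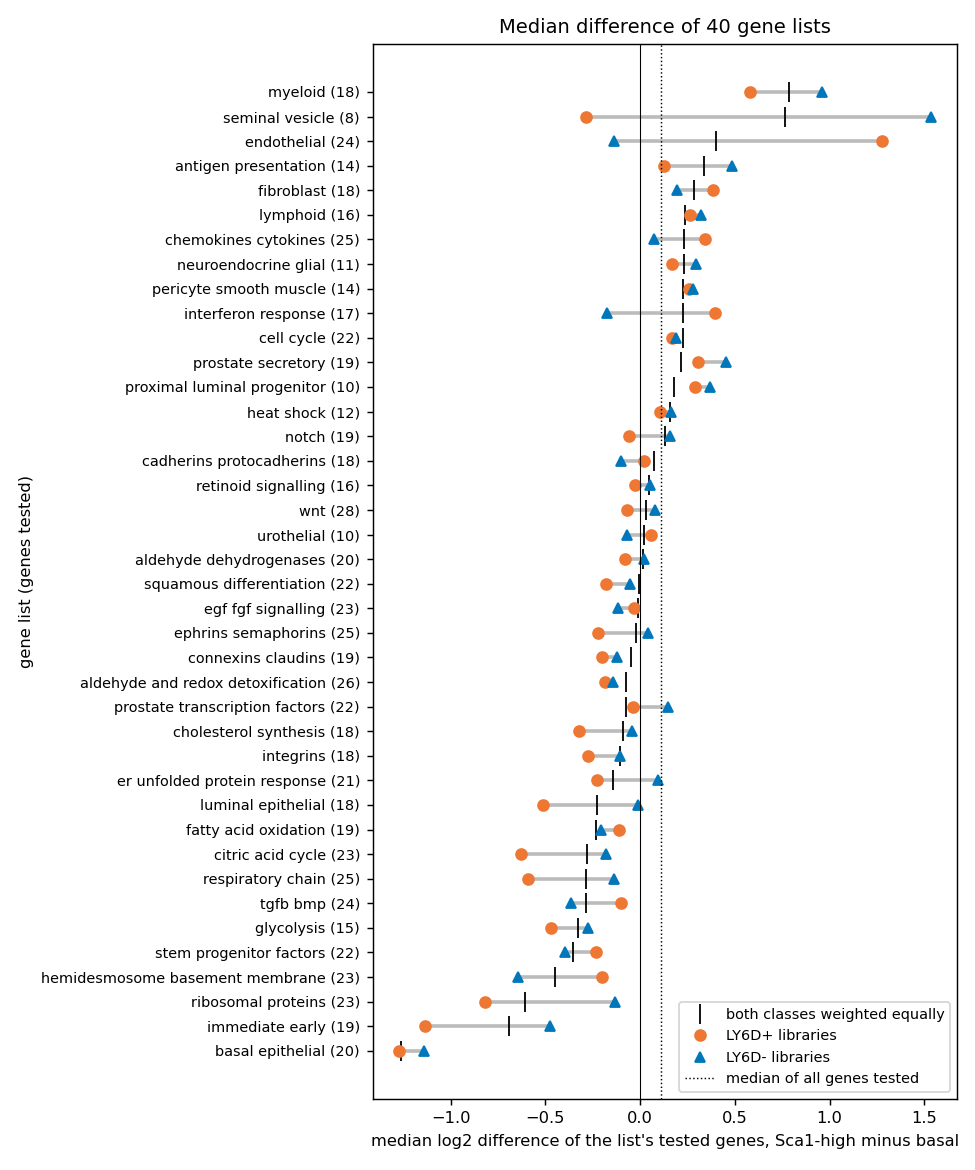
Median difference of Sca1-high minus basal (log2) for each of the 40 gene lists, over all 8 libraries and within each LY6D class, with the median of all genes (0.11) for reference. Basal epithelial genes have the lowest median (-1.26) and myeloid genes the highest (0.79).

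The gate difference was also set against the LY6D class. In LY6D+ cells 2 genes passed the threshold (0.00993%), Aldh2 and Mir1191, and in LY6D- cells 1 did (0.00497%), Aldh2. Neither LY6D+ gene was called with only the 8 arrays, all probe sets, quantile normalization or trend moderation, nor without 1 LY6D+ luminal or LY6D+ basal library of either mouse. The LY6D- call was lost with the fixed replicate block, only the 8 arrays, the mean of probe sets or trend moderation, and without the LY6D- Sca1-high library of mouse 1 or either LY6D- basal library. Mir1191 read 4.80 and 5.47 in LY6D+ Sca1-high and 8.65 and 8.05 in LY6D+ basal libraries, but 5.54 and 5.80 against 5.09 and 5.34 in LY6D- libraries. Its difference was -3.22 in LY6D+ and 0.46 in LY6D- cells. The small nucleolar RNA gene Snora33 showed a like pattern, with -3.57 and 0.41. Ctla2a, a cysteine protease inhibitor expressed in endothelium, differed by 5.55 and 0.16, and Gap43, a growth-cone protein, by 2.68 and -0.07. Abcb1a, a drug efflux pump of endothelium, differed by 2.89 and -0.57. Gnpnat1, an enzyme of the hexosamine pathway, differed by -3.87 and 3.66. The test of the difference between the classes called none of the 20135 genes after adjustment (0%), and 475 had an unadjusted p under 0.05 (2.36%). Without the LY6D+ Sca1-high library of mouse 1, 14 genes were called in that test, and the class difference of Ctla2a was 6.61 (adjusted p = 0.0224).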

How the data were processed

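Total RNA of sorted cells was extracted with an RNeasy kit, amplified by the NuGEN Ovation V2 method, labelled with biotin and hybridised to 1-colour arrays, per the labels' protocols. The deposited values are log2 signals of 41345 probe sets on 12 arrays, for which RMA and oligo are the tools listed by the submitters' processing notes, with no version. The genome build used upstream is not given in the sources used here. Array precision is limited by the number of arrays.

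Of the probe sets, 23521 had a single symbol in the platform annotation, 1814 several and 16010 were unnamed here. Per gene the brightest probe set was kept (22180 genes, 1082 with several probe sets), and genes above the lower quartile (2.98) on at least 2 arrays were tested (20135). A model of 6 gate and LY6D class groups was fitted to all 12 arrays with limma 3.58.1 in R 4.3.3, with empirical Bayes moderation and Benjamini-Hochberg adjustment over all genes at 0.05. The steps were tested on simulated data with independent noise in every library. That simulation held no effect shared by libraries of the same mouse, so it cannot check the p-values for this design. Mice were taken from the labels. The LY6D+ and LY6D- libraries of a mouse and gate deviated together with r = 0.407 in basal, 0.149 in Sca1-high and 0.022 in luminal cells, and Sca1-high and basal libraries of mouse 5 with r between -0.01 and 0.18.

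Named genes were both called genes, the 12 genes per direction with the smallest p-values and with the largest differences among genes without overlap, those called in a LY6D class, the 3 per direction with the smallest p-values for the class difference, the sorting genes, up to 4 genes of each list by smallest p-value and up to 5 of the genes called in most alternatives. Genes outside the rule are named as such. The members and the 40 lists (781 genes, 717 tested) were chosen with earlier results of these data known. Alternatives covered mouse as a block, the samples fitted, filters, probe set choice, scaling, array weights and left-out libraries. Averaging per mouse, leaving out both basal libraries of mouse 5, and counts without overlap under alternatives were added after seeing the data.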

Additional observations from a re-analysis of the deposited data

Results flagged for a closer look

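Among 304 series of 4 libraries of a gate (named genes and gene list means), 21 had a library far from the other 3. Chance alone gives about 1 in 20. The LY6D+ Sca1-high library of mouse 5 was low for Krt18 (5.30), Cryab (8.47), Lyz2 (3.20), Pcdh7 (2.50) and the list means of luminal epithelial (5.96) and cholesterol synthesis genes (4.65), and high for Rgs5 (11.66). The LY6D- Sca1-high library of mouse 5 was low for Atp13a2 (4.69) and pericyte and smooth muscle genes (5.05), and the LY6D- Sca1-high library of mouse 1 was high for cadherins (4.77).

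The LY6D- basal library of mouse 3 was low for Krt14 (10.19), Krt17 (11.25), Ly6d (4.86), Slc2a1 (9.53), Cyp51 (4.99) and the list means of integrins (5.68), immediate early genes (7.99), unfolded protein response genes (6.89) and connexins and claudins (5.76). It was high for pericyte and smooth muscle genes (5.02). The LY6D+ basal library of mouse 5 was high for Mir20a (4.90).

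Outside the genes tested, 2 probe sets without a single symbol had identical values, 2.85 in Sca1-high and 6.66 in basal cells, and differed by -3.80 ± 0.31 (limma over all probe sets, adjusted p = 0.0171). The probe sets have no gene name here.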

How the results depend on the processing

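Aldh2 was called in 25 of 27 alternatives and Pcdh7 in 22. No other gene was called in more than 4; Wipi2 was in 4 and Flvcr1 and Marchf5 in 3, and 253 genes were called in at least 1. The 2 calls became 80 with mouse as a fixed replicate block, 1 with only 8 arrays or the mean of probe sets, 4 with all probe sets or trend and robust moderation, 5 without the LY6D+ Sca1-high library of mouse 5, 10 without both Sca1-high libraries of mouse 5 and 0 with per-mouse means, where Aldh2 had an adjusted p of 0.0729. Leaving out single libraries gave 2 to 133. The other alternatives gave 2 or 3. Some of the 27 repeat each other. The fit without the LY6D+ Sca1-high library of mouse 5 was entered more than once. Leaving out either luminal library of a class gave the same test of the gate difference. The fixed replicate block drew the gate difference over both classes from mouse 5 alone.

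In LY6D+ cells (2 calls) the fixed replicate block gave 29, array weights 4, the random replicate block 3 and the fit without the LY6D+ Sca1-high library of mouse 5 gave 11. It was 1 under quantile normalization, the mean of probe sets or trend moderation, and 0 with 8 arrays, all probe sets, or without the mouse 5 libraries that stand apart on the first principal component (both basal and LY6D- luminal), both basal or both Sca1-high ones. Single libraries gave 0 to 76. In LY6D- cells (1 call) quantile normalization gave 3, all probe sets 5, and the fits without the LY6D+ Sca1-high library of mouse 5 gave 2 and without both basal libraries of mouse 5 gave 3. It was 0 with either the fixed replicate block, 8 arrays, the mean of probe sets, trend moderation, or without the mouse 5 libraries that stand apart or both Sca1-high ones. Single libraries gave 0 to 14, as for the class difference (0 to 14).

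Genes above without overlap (961) numbered 421 with centring, 550 with quantile normalization, 1749 with all probe sets, 642 with the stricter filter, 1516 without the LY6D+ Sca1-high library of mouse 5, 1653 without the mouse 5 libraries that stand apart or both basal ones, 2991 without both Sca1-high ones and 5419 with per-mouse means. Genes below (456) numbered 675 with centring, 568 with quantile normalization, 672 with all probe sets, 1047 without the mouse 5 libraries that stand apart or both basal ones, 1369 without both Sca1-high ones and 2462 with per-mouse means. For differences of at least 1, genes above (37) numbered 19 with centring, 54 with quantile normalization, 160 with all probe sets, 79 without the LY6D+ Sca1-high library of mouse 5, 108 without the mouse 5 libraries that stand apart or both basal ones, 205 without both Sca1-high ones and 149 with per-mouse means, and genes below (301) numbered 452 with all probe sets, 778 without both Sca1-high libraries of mouse 5 and 909 with per-mouse means. Single libraries gave 1168 to 2118 above and 534 to 1278 below, and 52 to 97 and 252 to 921 for differences of at least 1.

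Of 111 named genes followed through the alternatives, 108 kept their sign throughout. Many of them were picked because their libraries did not overlap between the gates. For those genes, leaving out libraries could not turn the sign. Leaving out a luminal library or fitting only the 8 arrays also left every gate difference unchanged. Ly6d turned positive with the fixed replicate block (0.041), quantile normalization (0.10), without the LY6D+ Sca1-high library of mouse 5 (0.16) and without the basal libraries of mouse 5 or those of mouse 5 that stand apart (0.25). Without single libraries it ranged from -0.65 to 0.55. Mir20a read 0.22 without the basal libraries of mouse 5 or those that stand apart, and -0.92 to 0.30 without single libraries. Trp63 read 0.0056 without the LY6D+ Sca1-high library of mouse 5, 0.012 without those of mouse 5 that stand apart or both basal ones, and -0.16 to 0.082 without single libraries. Of 40 lists, 17 kept the sign of their median throughout, and 7 turned it under a scaling. The cause of these changes was not tested. Array signal near the lower quartile limits Mir17, Mir18 and Pcdh7 in Sca1-high cells.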
